A study of Mus musculus with 27 samples.

Results

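The inducible heat shock chaperones are the cytosolic HSP70 proteins Hspa1a and Hspa1b and the proteins that work with them on unfolded clients. The set held 10 listed genes: Hspa1a, Hspa1b, Dnajb1, Hsp90aa1, Hsp90ab1, Hsph1, Hspa8, Hspb1, Hsf1 and Bag3. Of these, 8 were found by symbol on the array, with 20 probe sets among the 45037 measured and 8 of 18193 named genes. No probe set carries the symbol Hsf1 or Hsp90ab1 in the annotation used, and both are not analysed here. The set was chosen for the strong rise of Hspa1a and Hspa1b without Rb1. Every value of Rb1 KO cells against wild type is therefore given as a description without a test. Tests of cells without both Rb1 and p107 against cells without p107 are not independent of that choice. A probe set is a group of short oligonucleotides that are read together, and it may match more than 1 transcript. Its value here is a MAS5 signal, an intensity scaled per array.

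The arrays measured total RNA of mouse foetal liver cells taken at E14.5 and either left uncultured (0 h) or kept for 24 or 48 h in culture with 30% serum, with no treatment in any group. The wild type group (WT) had 3, 2 and 2 arrays at 0, 24 and 48 h, and cells without p107, the product of Rbl1 (p107KO), had 2, 2 and 1. Cells without Rb1 (Rb1KO) had 5, 4 and 2 arrays, and cells without both (DKO) had 2, 1 and 1, which makes 27 arrays in 12 genotype-by-time groups. The labels give neither the altered part of each gene, nor the strain, nor whether a knockout was limited to a cell type. Nor do they state whether the replicate arrays are of different embryos or cultures. A p-value here therefore covers the spread of these arrays, which may be technical in some groups. Foetal liver at this age holds red cell precursors beside hepatocytes and other cells, and in such bulk RNA fewer cells of a type and less RNA per cell cannot be told apart.

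Heat shock factor HSF1 is normally held inactive by chaperones, and unfolded proteins release it to bind inverted GAA repeats, called heat shock elements, upstream of chaperone genes. HSP70 proteins then hold unfolded clients with the help of J-domain partners such as Dnajb1, nucleotide exchange factors such as Hsph1 and Bag3, and the HSP90 system. In human erythroblasts HSP70 is also known to protect the transcription factor GATA1 from caspase cleavage, and the pocket proteins encoded by Rb1 and Rbl1 restrain E2F transcription factors.

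Hspa1a and Hspa1b lie side by side on chromosome 17 with 0 annotated genes starting between them, and their coding sequences are nearly identical. Their promoters are printed because these genes carry the largest differences of the set, and those of Dnajb1 and Hspb1 for contrast, a member that was also higher without Rb1 and one that passed no test there. Each sequence is the 250 bases before the first annotated start, 5′ to 3′ on the gene's strand, from RefSeq on GRCm38.p6, which held 6 of the 10 members. The windows are chr17:34972157-34972406 (minus strand) for Hspa1a, chr17:34959239-34959488 (minus strand) for Hspa1b, chr8:83607925-83608174 (plus strand) for Dnajb1 and chr5:135887669-135887918 (plus strand) for Hspb1. Capitals mark matches to a paired heat shock unit, searched on both strands as GAANNTTC or TTCNNGAA.
Hspa1a: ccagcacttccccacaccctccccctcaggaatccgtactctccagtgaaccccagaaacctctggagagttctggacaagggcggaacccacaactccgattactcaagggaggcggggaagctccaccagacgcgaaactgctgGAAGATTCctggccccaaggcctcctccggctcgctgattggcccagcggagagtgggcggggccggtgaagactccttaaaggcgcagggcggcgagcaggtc
Hspa1b: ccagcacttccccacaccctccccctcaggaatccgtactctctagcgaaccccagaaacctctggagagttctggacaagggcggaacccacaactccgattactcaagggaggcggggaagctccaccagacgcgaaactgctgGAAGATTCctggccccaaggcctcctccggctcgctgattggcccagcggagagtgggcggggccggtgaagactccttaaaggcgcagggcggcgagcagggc
Dnajb1: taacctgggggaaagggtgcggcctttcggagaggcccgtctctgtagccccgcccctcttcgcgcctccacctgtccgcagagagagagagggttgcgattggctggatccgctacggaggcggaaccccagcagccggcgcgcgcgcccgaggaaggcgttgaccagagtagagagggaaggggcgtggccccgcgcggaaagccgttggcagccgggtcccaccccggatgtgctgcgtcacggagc
Hspb1: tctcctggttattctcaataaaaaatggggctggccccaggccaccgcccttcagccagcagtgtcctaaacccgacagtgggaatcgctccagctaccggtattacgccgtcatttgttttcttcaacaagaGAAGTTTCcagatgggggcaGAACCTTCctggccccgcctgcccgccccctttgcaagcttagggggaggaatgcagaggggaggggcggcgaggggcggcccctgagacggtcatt
The Hspa1a and Hspa1b windows were identical at 247 of 250 bases, and each held GAAGATTC starting 104 bases before the start. Hspb1 held GAAGTTTC and GAACCTTC, Hsph1 held TTCTCGAA, and the windows of Dnajb1 and Bag3 held no match. A paired unit stood in 12.8% of 32851 mouse windows of the same length, GAANNTTC alone in 6.69% and TTCNNGAA alone in 7.17%. No member held a longer run that joins both. The E2F words TTTCCCGC, TTTGGCGC, TTTCGCGC and TTTGCCGC, searched on both strands, stood in 1.86% of windows together and in no member. These matches describe letters only, and the absence of a match says nothing about binding elsewhere.

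The knocked-out genes were read first as a check of the labels. The Rbl1 signal was 798.0 to 1745.5 in WT and 1277.9 to 3502.3 in Rb1KO, against 70.3 to 167.5 in p107KO and 84.5 to 122.7 in DKO. The Rb1 signal was 5745.6 to 10308.7 in WT and 1507.1 to 2825.3 in Rb1KO at 0 h, but 4207.2 to 5452.8 in Rb1KO at 48 h. The single DKO array labelled 48 h read 5993.6, within the WT values at 48 h (5745.6 to 6583.2). The p107KO array at 48 h read 5314.0, within the Rb1KO values of that time, so this probe set did not separate the arrays by Rb1 at 48 h. Because the altered part of Rb1 is not given, it does not settle the label of the DKO array. The DKO calls averaged over the culture times are also given without that DKO array, as averages of 0 and 24 h only. Signal of the Y-linked gene Eif2s3y was above 200 in all 4 DKO arrays, in 3 of the 11 from Rb1KO, in 2 of the 5 from p107KO and in 0 of the 7 from WT, so embryo sex and the DKO genotype cannot be told apart. This signal differed between replicate arrays of p107KO at 0 h (1075.4 and 9.5) and 24 h (2665.2 and 11.3) and of Rb1KO at 48 h (2.3 and 1351.1). The arrays within these groups were therefore not of the same embryo. Replicate 5 of Rb1KO at 0 h and replicate 1 of p107KO, Rb1KO and DKO at 24 h had the lowest median correlation with the other arrays of their time (0.958, 0.939, 0.922 and 0.942). The erythroid markers summed to 100787.0 to 271174.7 in all arrays, over 6 of 8 listed genes, although Hba-a1 was dim at 5.5 to 124.3. The hepatocyte markers, over 5 of 6 genes, summed to 124219.6 to 175941.7 at 0 h and 2745.0 to 39945.4 in culture.

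The inducible HSP70 signals were higher without Rb1 at each culture time and rose with culture in WT, p107KO and Rb1KO cells. For the brightest Hspa1b probe set (1452318_a_at), the WT arrays at 0 h read 165.0, 183.4 and 244.0, and the p107KO arrays read 477.2 and 235.8. The Rb1KO arrays at 0 h ran from 1190.2 to 2560.3 around a median of 1494.3, and the DKO arrays read 2925.8 and 2369.4. Before any culture, all 7 arrays without Rb1 therefore lay above all 5 arrays with it, while WT and p107KO overlapped each other and so did Rb1KO and DKO. At 24 h the WT arrays read 604.5 and 1000.1, the p107KO arrays 1026.7 and 827.0, the Rb1KO arrays 16527.8, 7799.4, 13287.0 and 15472.2, and the DKO array 31747.4. At 48 h the WT arrays read 1887.7 and 2126.1, the p107KO array 1724.0, the Rb1KO arrays 13833.3 and 16986.3, and the array labelled DKO 20026.0. At each culture time the groups with and without Rb1 were separate. Few arrays stand on either side, and how many of all probe sets separate in this way was not counted. Such separations, here and for the genes below, are descriptions only.

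In order of level, Hspa1b was lowest in WT and p107KO at 0 h, which overlapped, followed by WT and p107KO at 24 h, which also overlapped. Rb1KO and DKO at 0 h came next and overlapped each other, and the WT and p107KO arrays at 48 h lay within the range of Rb1KO at 0 h. Rb1KO at 24 and 48 h overlapped, and the DKO arrays of 48 and 24 h were the highest, each a single array. Relative to the WT mean at 0 h, the mean signal was 8.33 times as high in Rb1KO before culture and 10.2 times as high in WT after 48 h. It reached 67.2 and 78.0 times that level in Rb1KO at 24 and 48 h. The WT arrays at 24 h lay below all uncultured Rb1KO arrays, and those at 48 h lay within their range.

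The Hspa1a probe set (1452388_at) had a similar layout. It read 91.4, 97.8 and 148.6 in WT and 203.7 and 148.4 in p107KO at 0 h, against 490.7 to 1030.9 (median 698.6) in Rb1KO and 1205.9 and 924.8 in DKO. At 24 h it read 502.9 and 640.4 in WT, 383.2 and 390.4 in p107KO, 7722.9, 2816.4, 4072.9 and 5961.1 in Rb1KO and 9228.3 in DKO. At 48 h it read 962.9 and 1253.3 in WT, 709.2 in p107KO, 10792.0 and 7214.3 in Rb1KO and 12360.4 in the array labelled DKO. At 0 h the arrays with and without Rb1 did not overlap, nor did they at 24 or 48 h. At the remaining Hspa1b probe sets (1427127_x_at and 1427126_at) the arrays with and without Rb1 were also separate at each time, but the order of neighbouring groups differed. Their DKO readings at 24 h (6982.4 and 4339.9) lay within the Rb1KO range. At 0 h both DKO arrays lay above all Rb1KO arrays, and the Rb1KO arrays at 48 h lay above those at 24 h. Because the genes are near-identical, how much of each signal came from either gene is uncertain, and 0 probe sets are annotated to both.

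**Figure D1:**
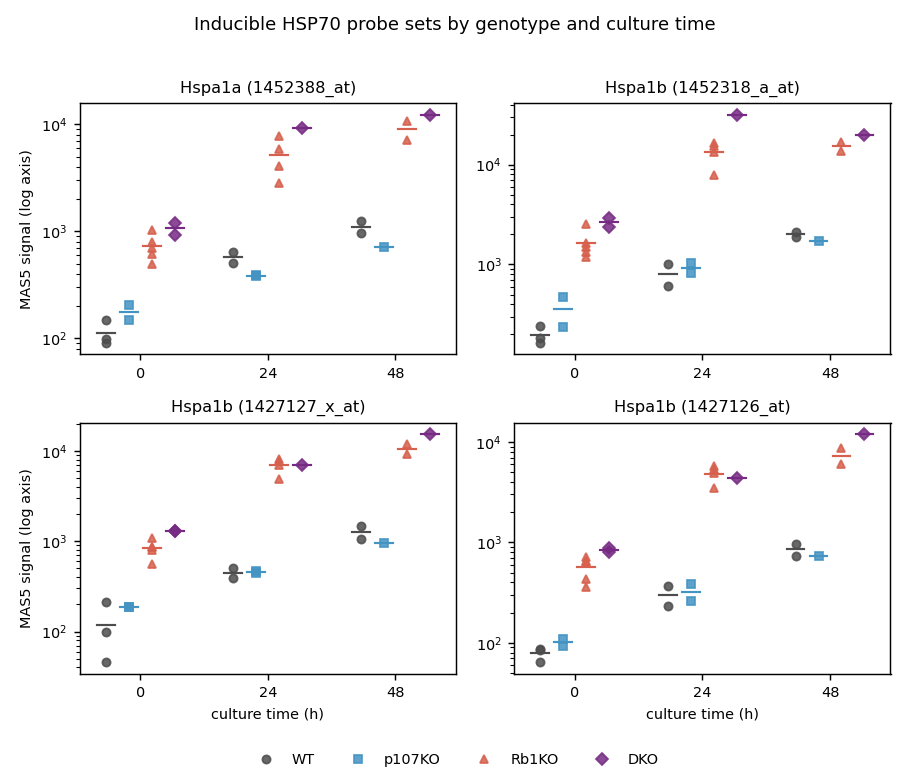
MAS5 signal (log axis) of the 4 Hspa1a and Hspa1b probe sets in each of the 27 arrays, by culture time in hours and genotype, with short bars at group means. At each time the Rb1KO and DKO arrays sit above the WT and p107KO arrays, and all genotypes sit higher at 24 h than at 0 h.

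The contrast closest to the choice of the genes, Rb1KO against WT with the culture times weighted equally, is described first. Across the 27022 probe sets tested, 13.0% passed an adjusted p of 0.05 in this contrast. The 3 Hspa1b probe sets ranked 1, 2 and 3 from the top of the table by fold, and Hspa1a ranked 6. For the brightest Hspa1b probe set the log2 difference was 2.83 ± 0.25 (SE) at 0 h, 3.98 ± 0.30 at 24 h and 2.92 ± 0.35 at 48 h. By 48 h the same probe set ranked 30 by fold and Hspa1a ranked 27. The ranks say where these probe sets lay in a contrast they were chosen from, and nothing is read from them.

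DKO against p107KO asks what the loss of Rb1 does in cells that already lack p107, and its group means come from none of the WT or Rb1KO arrays. The spread behind its p-values is pooled over all 12 groups, since 24 and 48 h have 1 DKO array each. Leaving out the only array of a genotype at a time drops that time for both genotypes. The average without the array labelled DKO at 48 h thus covers 0 and 24 h only. The members were chosen for a rise without Rb1 with earlier results of all arrays known, so the comparison is not independent evidence of that rise. Averaged over the culture times, 9 of 18 tested member probe sets were higher in DKO and 0 were lower by limma with Benjamini-Hochberg adjustment, where 4.59% of all probe sets passed in either direction, 2.76% higher and 1.83% lower. At an unadjusted p of 0.05, 12 member probe sets were higher and 0 lower. Their median log2 difference was 0.63, against -0.05 over all probe sets tested. All 4 Hspa1 probe sets, both Dnajb1 probe sets and 3 of 4 Hsp90aa1 probe sets made up the 9. They do not count as separate genes, and the Hspa1 sets read the near-identical genes for which the set was chosen. Without the array labelled DKO at 48 h, 6 member probe sets were higher and 0 lower, where 1.26% of all probe sets passed (341 against 1239 with it), and the 3 Hsp90aa1 calls were the ones lost.

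In that contrast Hspa1b rose by 3.81 ± 0.25 on the log2 scale (14.0-fold, limma adjusted p = 1.19e-09), which ranked 1 of 27022 by fold. Hspa1a rose by 3.64 ± 0.25 (12.5-fold, limma adjusted p = 2.37e-09) and ranked 2. The other Hspa1b probe sets rose by 3.47 ± 0.25 and 3.45 ± 0.21 and ranked 5 and 6. Both genes were chosen for a rise without Rb1, so nothing is read from their ranks or p-values here. Without the array labelled DKO at 48 h the log2 differences were 3.95, 3.23 and 3.19 for the Hspa1b sets (limma adjusted p = 1e-08, 2.03e-07 and 2.45e-08) and 3.43 for Hspa1a (limma adjusted p = 9.47e-08). Without the 4 arrays with low correlations, which leaves an average of 0 and 48 h, they were 3.18 and 3.23. Within genotypes, the Hspa1b readings of arrays with Y-linked signal lay above the others in p107KO at 0 and 24 h (477.2 against 235.8, 1026.7 against 827.0), within the others' range in Rb1KO at 0 h (1641.6), below them in Rb1KO at 24 h (7799.4) and above in Rb1KO at 48 h (16986.3 against 13833.3). All fold changes here are on the log2(signal + 32) scale, which understates the change of dim probe sets.

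At 0 h, the one time with more than 1 DKO array, 5 of 18 member probe sets were higher in DKO than in p107KO and 0 were lower, where 0.0777% of all probe sets passed, 0.0518% higher and 0.0259% lower. This count also covers genes chosen for a rise without Rb1, and several probe sets of the near-identical Hspa1 genes. After median scaling 56.2% of the calls were higher, against 66.7%, with 5 and 0 members. Hspa1b rose 7.22-fold (log2 2.85 ± 0.35, limma adjusted p = 0.000202), and its other probe sets rose 6.13-fold and 6.61-fold. Hspa1a rose 5.28-fold (log2 2.40 ± 0.35, limma adjusted p = 0.00211), a call lost without p107KO 0 h replicate 2 (adjusted p = 0.0715) or DKO 0 h replicate 1 (adjusted p = 0.103), and the range over its alternatives was 9.94e-06 to 0.103. These uncultured cells also differed in other ways. The neutrophil markers summed to 33001.4 to 34612.9 in p107KO and 25362.5 to 26180.9 in DKO, and the hepatocyte markers to 164980.1 to 175941.7 and 141565.9 to 162095.1. The part of cell makeup in the Hspa1 difference was not tested.

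Dnajb1, the HSP40 protein that delivers clients to HSP70 and stimulates its ATPase, was higher without Rb1 at each culture time. Its probe set 1416755_at read 4425.1, 3201.5 and 4674.6 in WT and 4080.2 and 4493.6 in p107KO at 0 h, against 5667.6 to 9179.6 (median 7164.7) in Rb1KO and 6956.2 and 7648.0 in DKO. At 24 h it read 4691.1 and 4832.1 in WT, 3772.8 and 4092.9 in p107KO, 12700.4, 6824.1, 7336.4 and 10447.6 in Rb1KO and 9964.1 in DKO. At 48 h it read 2802.9 and 2653.9 in WT, 2451.2 in p107KO, 6387.8 and 6560.7 in Rb1KO and 5306.4 in the array labelled DKO. Arrays with and without Rb1 did not overlap at any of the times, but unlike Hspa1b the WT readings at 48 h lay below those at 0 h. At the other probe set, 1416756_at, the WT readings of 48 h (2311.5 and 4263.9) overlapped those of 0 h (2366.1 to 3052.2).

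DKO exceeded p107KO by 1.07 ± 0.17 on the log2 scale at 1416755_at (2.10-fold, limma adjusted p = 0.000348) and by 1.07 ± 0.16 at 1416756_at (2.10-fold, limma adjusted p = 0.000172). Without the array labelled DKO at 48 h the differences were 1.05 and 1.09 (limma adjusted p = 0.00456 and 0.00187). At 0 h the probe sets disagreed on the call. The dimmer set rose 2.83-fold (limma adjusted p = 0.00273), and the brighter had a log2 difference of 0.76 ± 0.24 (limma adjusted p = 0.825). The call at 1416756_at was lost without p107KO 0 h replicate 1 (adjusted p = 0.209), DKO 0 h replicate 1 (adjusted p = 0.0783) or DKO 0 h replicate 2 (adjusted p = 0.0747), with a range of 1.03e-05 to 0.209 over its alternatives. The brighter set passed with array weights (adjusted p = 0.0261, range 0.0261 to 1.0 over its alternatives).

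Hsp90aa1 encodes the inducible form of HSP90, which finishes the folding of kinases and receptors handed on by HSP70. Its brightest probe set (1438902_a_at) read 12623.2 to 15308.5 in WT and 13156.6 and 15068.2 in p107KO at 0 h, against 15287.2 to 24866.7 in Rb1KO and 17243.2 and 19979.1 in DKO. At 24 h it read 23455.1 and 30280.9 in WT, 37221.9 and 25189.9 in p107KO, 49785.9, 29156.2, 35045.1 and 42154.2 in Rb1KO and 62405.0 in DKO. At 48 h it read 20599.1 and 21579.2 in WT, 19916.0 in p107KO, 37536.6 and 35021.0 in Rb1KO and 33879.1 in the array labelled DKO. At this probe set, arrays with and without Rb1 were separate at 48 h and overlapped at 0 and 24 h. At 1437497_a_at they overlapped at 0 h and were separate at 24 h (highest with Rb1 17819.2, lowest without 21030.7) and at 48 h. At 1426645_at they were separate at 0 h by a narrow gap (9116.5 and 9138.6), at 24 h (16313.4 and 20393.5) and at 48 h.

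Against p107KO, DKO was higher at the 3 bright Hsp90aa1 probe sets by 0.73 ± 0.17, 0.72 ± 0.21 and 0.74 ± 0.14 on the log2 scale (1.66-, 1.65- and 1.67-fold, limma adjusted p = 0.0116, 0.0441 and 0.00264). Each of these calls was lost in some alternatives. Leaving out the only DKO array of 24 or 48 h, or the only p107KO array of 48 h, also drops that time from the average. The first was lost without DKO 24 h replicate 1 (adjusted p = 0.224), p107KO 48 h replicate 1 (adjusted p = 0.0682) or the array labelled DKO 48 h (adjusted p = 0.0684), and in a fit of the compared groups alone (adjusted p = 0.0577). The third was lost without p107KO 48 h replicate 1 or the array labelled DKO 48 h (adjusted p = 0.125 each), and the second in 18 of 37 alternatives. Its losses included the leaving out of single WT or Rb1KO arrays, which changes only the pooled spread (adjusted p = 0.0503 to 0.0529), and of the array labelled DKO 48 h (adjusted p = 0.241). Over their alternatives the adjusted p ran from 0.00106 to 0.224, from 0.0215 to 0.242 and from 0.000491 to 0.125. The dim set 1433251_at only just passed the filter on low values and read a log2 difference of -0.09 ± 0.33 (limma adjusted p = 0.943), and 1441827_x_at fell below it.

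Hspa8, the constitutive HSP70 that folds new proteins and strips clathrin from vesicles, was among the brightest probe sets of the array. Its set 1455789_x_at read 24706.0 to 31041.8 in WT and 27099.5 to 36499.4 in Rb1KO at 0 h, so the genotypes overlapped before culture. DKO against p107KO gave log2 differences of 0.41 ± 0.20, 0.38 ± 0.15 and 0.54 ± 0.22 at its 3 bright probe sets, none past the threshold (limma adjusted p = 0.318, 0.174 and 0.188). After quantile normalization the first and second passed (adjusted p = 0.0258 and 0.0287), where their ranges over all alternatives were 0.0258 to 0.94 and 0.0287 to 0.71.

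Hsph1, an HSP110 nucleotide exchange factor for HSP70, read 3846.9 to 4717.9 in WT and 3604.2 to 6537.0 in Rb1KO at 0 h at 1425993_a_at, and 4440.5 and 5417.6 against 4236.8 to 5934.3 at 24 h. The genotypes overlapped at both times. DKO against p107KO differed by 0.21 ± 0.16 (limma adjusted p = 0.617) there and by -0.13 ± 0.27 (limma adjusted p = 0.895) at 1423566_a_at. Hspb1, a small heat shock protein that holds unfolded clients for HSP70, was dim before culture, with 73.0 to 183.3 in WT and 78.6 to 191.3 in Rb1KO. At 48 h its WT arrays, 711.9 and 338.0, and the p107KO array, 395.6, lay above the Rb1KO arrays (285.5 and 174.3) and the array labelled DKO (126.7).

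That order at 48 h is opposite to the one of the Hspa1 genes. The Hspb1 difference of DKO from p107KO over all times was -0.51 ± 0.29 (limma adjusted p = 0.439), and its second probe set (1425964_x_at) was below the filter. Bag3, which couples HSP70 to selective autophagy, read 266.4 to 422.1 in WT and 256.3 to 446.8 in Rb1KO at 0 h, and 667.6 and 675.7 against 397.7 and 609.2 at 48 h. Its DKO difference from p107KO was -0.27 ± 0.21 (limma adjusted p = 0.613). Without the array labelled DKO at 48 h, the Hspa8, Hsph1, Hspb1 and Bag3 sets also passed no test in DKO against p107KO, with log2 differences of -0.04 for Hspb1 and -0.15 for Bag3. In DKO against p107KO, probe sets of Hspa1a, Hspa1b, Dnajb1 and Hsp90aa1 thus passed, and none of Hspa8, Hsph1, Hspb1 or Bag3 did with the deposited scaling.

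**Figure D2:**
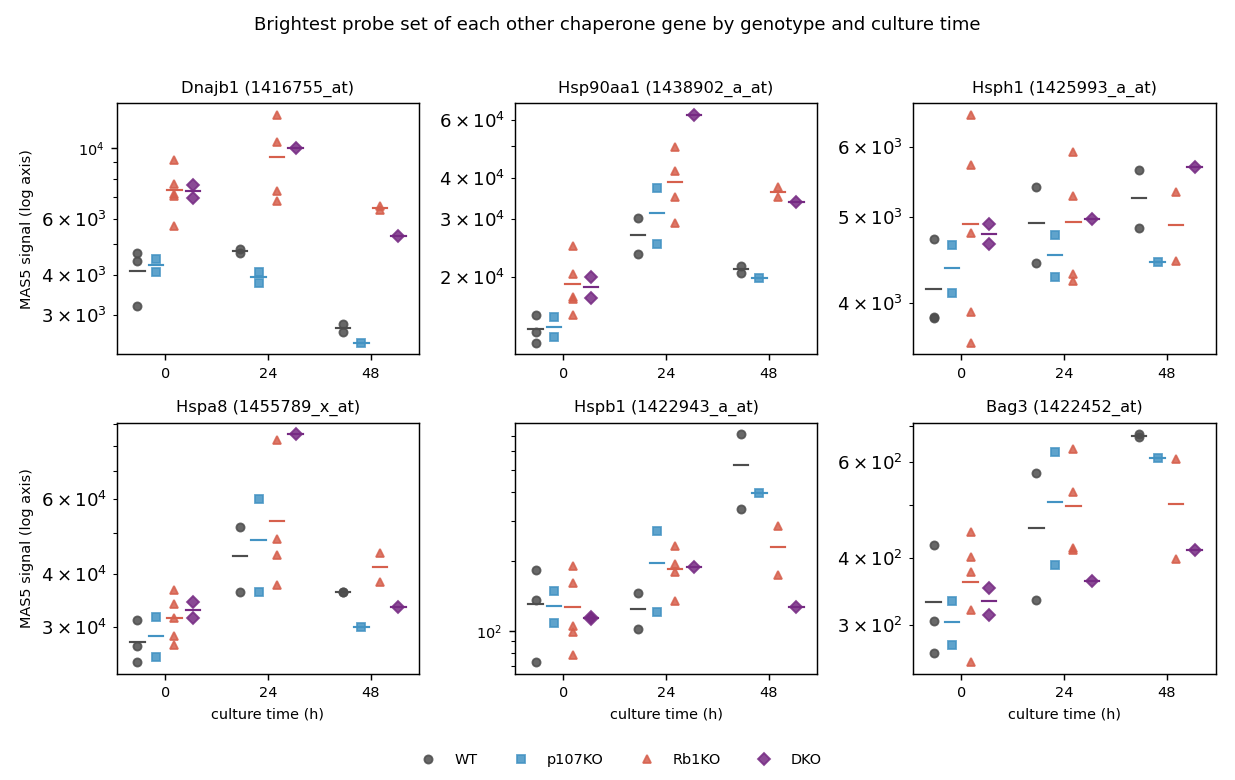
MAS5 signal (log axis) of the brightest probe set of Dnajb1, Hsp90aa1, Hsph1, Hspa8, Hspb1 and Bag3 in each of the 27 arrays, by culture time in hours and genotype, with short bars at group means. Dnajb1 separates by Rb1 at each time, whereas Hsph1 and Bag3 overlap at 0 and 24 h and the WT arrays of Hspb1 (711.9 and 338.0) are above those without Rb1 at 48 h.

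**Figure D3:**
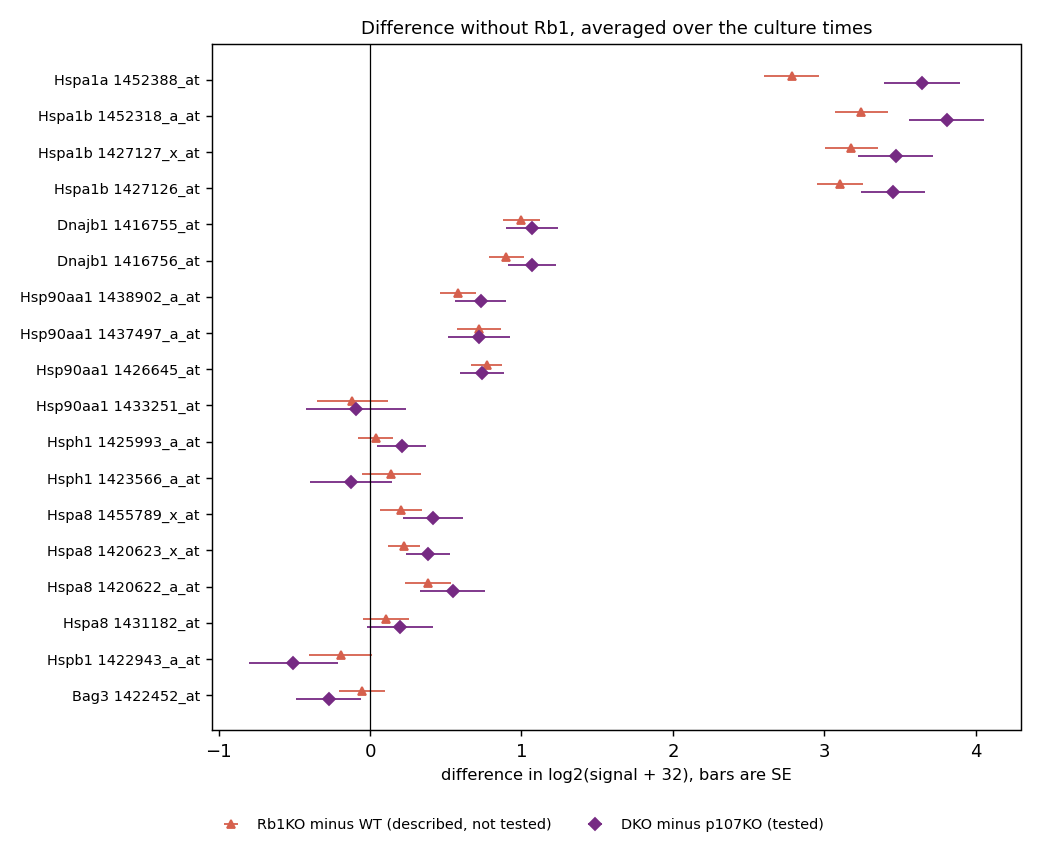
Log2 difference of Rb1KO from WT (triangles, described only) and of DKO from p107KO (diamonds) for the 18 tested member probe sets, averaged over culture times, with bars of 1 SE. The 4 Hspa1 probe sets lie far to the right in both (3.45 to 3.81 for DKO), the Dnajb1 sets near 1.07, and the DKO differences of Hsph1, Hspb1 and Bag3 at 0.21 or below.

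The loss of p107 alone was tested in p107KO against WT and, on top of the loss of Rb1, in DKO against Rb1KO. In p107KO against WT, 0 of 18 member probe sets passed by limma, where 0.0222% of all probe sets did, and 1 was higher and 1 lower at an unadjusted p of 0.05. Hspa1b differed by 0.24 ± 0.21 (limma adjusted p = 0.953) and Hspa1a by -0.20 ± 0.22 (limma adjusted p = 0.962). In DKO against Rb1KO, 0 of 18 passed by limma, where 0.703% of all probe sets did, although 5 were higher and 0 lower at an unadjusted p of 0.05. Hspa1b was 1.75-fold higher in DKO (log2 0.81 ± 0.22, limma adjusted p = 0.0774), and Hspa1a 1.58-fold (log2 0.66 ± 0.22, limma adjusted p = 0.16).

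The Hspa1b value in DKO against Rb1KO lay near the threshold and rested on few arrays. Leaving out the only DKO array of 24 or 48 h also drops that time from the average. It passed with array weights (adjusted p = 0.0136), with the replicate number as a block (adjusted p = 0.042), without Rb1KO 0 h replicate 5 (adjusted p = 0.0263) and without the array labelled DKO 48 h (adjusted p = 0.048). Without DKO 24 h replicate 1, the array with the reading of 31747.4, its adjusted p was 0.895, the highest of a range from 0.0136. Hspa1a passed with array weights alone (adjusted p = 0.05, range 0.05 to 0.921). Dnajb1 differed by -0.05 and -0.21 on the log2 scale in this comparison and the brightest Hsp90aa1 set by 0.20, none past the threshold. Comparisons that share arrays are given side by side and not as independent results.

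The HSP70 signals rose from 0 to 24 h of culture in WT, p107KO and Rb1KO, and the change in DKO was not fitted here. In this interval 8 of 18 member probe sets changed in WT, 7 higher and 1 lower, where 27.5% of all probe sets changed, 10.3% higher and 17.2% lower. In p107KO 8 changed, 7 higher and 1 lower, against 20.5% of all, 8.21% higher and 12.3% lower. In Rb1KO 11 changed, 10 higher and 1 lower, against 40.2%, 16.0% higher and 24.2% lower. After median scaling 51.6% of the WT calls over the whole table were higher, against 37.6% as deposited, and 9 member probe sets were higher and 1 lower. Of these member probe sets, 4 read the near-identical Hspa1 genes, so they do not count as separate genes. The Rb1KO count also covers genes chosen for a rise without Rb1. The summed hepatocyte and stroma markers also dropped with culture, the latter from 5817.9 to 9102.4 in WT at 0 h to 170.0 to 231.7 at 24 h, and the part of cell makeup in these changes was not tested.

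Hspa1b rose 3.57-fold in WT (log2 1.84 ± 0.32, limma adjusted p = 0.000117), 2.58-fold in p107KO (log2 1.37 ± 0.35, limma adjusted p = 0.00623) and 7.91-fold in Rb1KO (log2 2.98 ± 0.23, limma adjusted p = 6.11e-10). Hspa1a rose 4.21-fold in WT (log2 2.07 ± 0.32, limma adjusted p = 3.5e-05), by 1.02 ± 0.35 in p107KO (limma adjusted p = 0.0432) and 6.55-fold in Rb1KO (log2 2.71 ± 0.24, limma adjusted p = 4.07e-09). Both genes were chosen for a rise that the Rb1KO arrays also show, so nothing is read from their Rb1KO p-values here. The p107KO calls were weaker than those of WT. That of Hspa1b was lost without p107KO 0 h replicate 2 (adjusted p = 0.146) or p107KO 24 h replicate 1 (adjusted p = 0.0714), with a range of 0.00237 to 0.146, and that of Hspa1a in 11 of 39 alternatives, with a range of 0.0188 to 0.238. The change of the p107KO difference from WT between 0 and 24 h passed for 0 of 18 member probe sets by limma, with 1 lower at an unadjusted p of 0.05, where 0% of all probe sets passed. Whether the Rb1KO rise exceeded that of WT was not tested, since that difference rests on the rise without Rb1 that chose the genes.

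Hsp90aa1 rose in culture at its 3 bright probe sets in each of these genotypes. At 1438902_a_at the log2 change was 0.95 ± 0.22 in WT (1.93-fold, limma adjusted p = 0.00231), 1.12 ± 0.24 in p107KO (limma adjusted p = 0.00165) and 1.03 ± 0.16 in Rb1KO (limma adjusted p = 2.1e-05). The WT call was lost without WT 24 h replicate 2 (adjusted p = 0.0639, range 3.59e-05 to 0.0639), and the p107KO call without the arrays with Y-linked signal (adjusted p = 0.234, range 0.000152 to 0.234). The second bright set was lost in 6 of 38 alternatives in WT (range 0.00831 to 0.292) and 5 in p107KO (range 0.00949 to 0.257). The third was lost in 1 alternative in WT, quantile normalization (adjusted p = 0.0737, range 0.000386 to 0.0737), and in 3 in p107KO (range 0.00136 to 0.0646). Dnajb1 did not pass in Rb1KO, with 0.31 (limma adjusted p = 0.134) and 0.22 (limma adjusted p = 0.26) on the log2 scale.

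The Hspa8 probe sets moved apart from each other. At 1431182_at the WT arrays fell from 1000.7, 1361.6 and 1217.2 at 0 h to 157.3 and 238.8 at 24 h, and the Rb1KO arrays from 922.8 to 1501.3 (median 1335.6) to 197.4, 210.0, 81.0 and 203.2. The p107KO arrays fell from 1207.5 and 1302.3 to 422.4 and 351.7. No uncultured array overlapped a cultured one in these genotypes. This was the 1 member probe set lower in each: 5.37-fold in WT (log2 -2.43 ± 0.28, limma adjusted p = 5.56e-07), 3.08-fold in p107KO (log2 -1.62 ± 0.30, limma adjusted p = 0.000406) and 6.46-fold in Rb1KO (log2 -2.69 ± 0.20, limma adjusted p = 3.71e-10). The bright Hspa8 sets rose in Rb1KO by 0.70 ± 0.19, 0.56 ± 0.14 and 0.61 ± 0.20 (limma adjusted p = 0.0049, 0.00256 and 0.0206), all lost after quantile normalization (adjusted p = 0.414, 0.347 and 0.176, the highest of their ranges, which started at 0.000141, 0.000413 and 0.00432). The third was also lost when any of 3 Rb1KO arrays was left out, replicate 2 of 0 h and replicates 1 and 3 of 24 h (adjusted p = 0.0671, 0.063 and 0.0611). In WT, 1455789_x_at changed by 0.66 ± 0.26 without passing (limma adjusted p = 0.0603), and by -0.08 after quantile normalization. Probe sets of 1 gene can read different transcripts, and which transcripts these read was not examined.

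**Figure D4:**
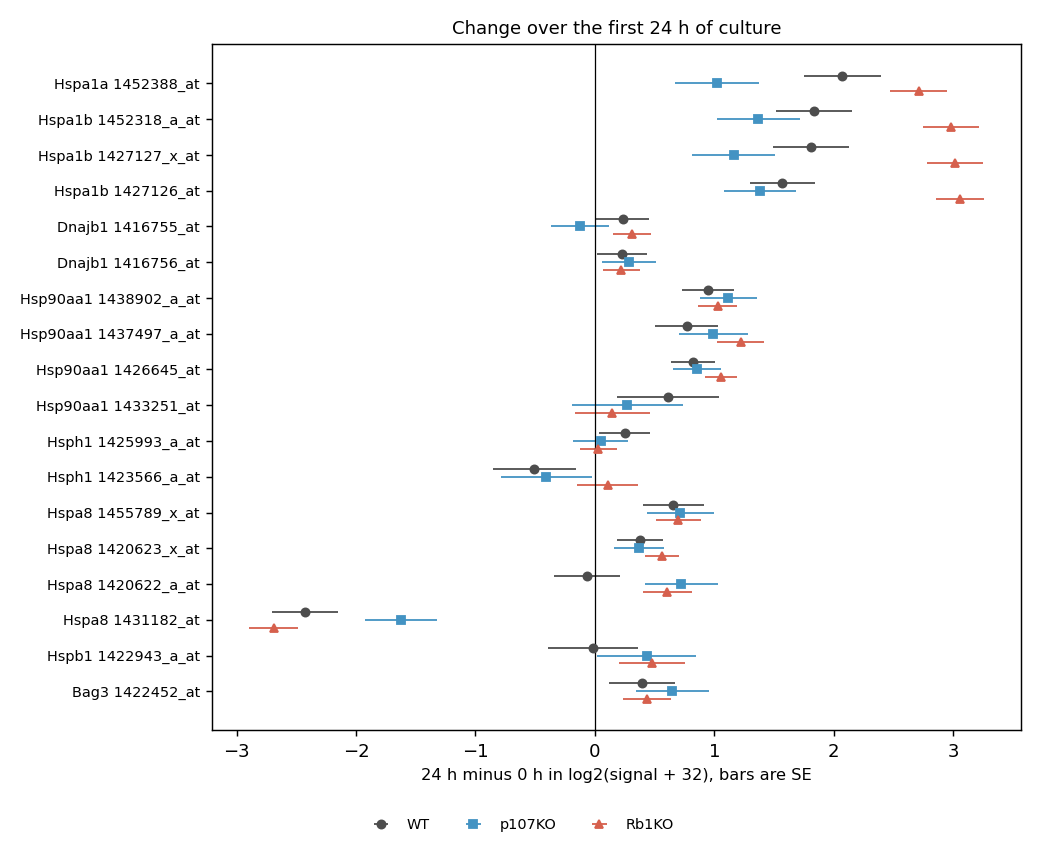
Log2 change from 0 to 24 h of culture of the 18 tested member probe sets in WT, p107KO and Rb1KO, with bars of 1 SE. The Hspa1 sets rise in the 3 genotypes (Hspa1b 1.84, 1.37 and 2.98), the bright Hsp90aa1 sets rise by about 1, and the Hspa8 set 1431182_at falls (-2.43, -1.62 and -2.69).

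From 24 to 48 h the genotypes were again fitted separately. In WT, 5 of 18 member probe sets changed, 4 higher and 1 lower, where 15.3% of all probe sets did, 8.27% higher and 7.01% lower. After median scaling 43.4% of those calls over the whole table were higher, against 54.1% as deposited, and the members' count stayed at 4 and 1. Hspa1b rose 2.51-fold (log2 1.33 ± 0.35, limma adjusted p = 0.0114) and Hspb1 3.40-fold (log2 1.77 ± 0.41, limma adjusted p = 0.0054), while Dnajb1 at 1416755_at fell by 0.80 ± 0.24 (limma adjusted p = 0.0279). The other Dnajb1 set had a change of 0.00 (limma adjusted p = 0.999).

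Of the 5 calls in WT, that of Hspa1b at 1427126_at (log2 1.42 ± 0.30, limma adjusted p = 0.00245) held whichever array was left out, and the others did not. The brightest Hspa1b set was lost without WT 24 h replicate 1 (adjusted p = 0.145) or WT 48 h replicate 2 (adjusted p = 0.0767), over a range of 0.00395 to 0.145, and 1427127_x_at without either of these arrays (adjusted p = 0.0702 and 0.0827, range 0.00171 to 0.0827). Hspb1 was lost without WT 24 h replicate 2 (adjusted p = 0.07) or WT 48 h replicate 1 (adjusted p = 0.113), over 0.00274 to 0.113. Dnajb1 was lost without any of the 4 WT arrays compared (adjusted p = 0.0924 to 0.137), or when arrays with Y-linked signal were dropped (adjusted p = 0.0529), over 0.00561 to 0.137. In Rb1KO, 0 of 18 passed by limma where 12.0% of all probe sets did, with 3 higher and 1 lower at an unadjusted p of 0.05. There the Hspa1b change was 0.26 ± 0.30 (limma adjusted p = 0.661) and that of Hspa1a 0.88 ± 0.31 (limma adjusted p = 0.0665), which passed in 5 of 39 alternatives over a range of 0.0133 to 0.548.

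How the members moved with each other was described over the 27 arrays after removing the mean of each culture time, with no p, since the arrays share genotype groups and the genes were chosen from them. Pearson's r with the brightest Hspa1b set was 0.975 for Hspa1a, 0.961 and 0.960 for the other Hspa1b sets, and 0.919 and 0.816 for Dnajb1. It was 0.834, 0.748 and 0.833 for the bright Hsp90aa1 sets and 0.519, 0.642 and 0.565 for the bright Hspa8 sets. Hsph1 (0.258 and -0.034), Hspb1 (-0.193) and Bag3 (-0.125) did not follow. Nor did the Hspa8 set 1431182_at (0.052) or the dim Hsp90aa1 set 1433251_at (-0.106). Outside the set, the 5 genes most alike were Otud1 (0.937), a deubiquitinase, Rhebl1 (0.936), a small GTPase, the E2F-regulated cyclin gene Ccne2 (0.934), 2500002B13Rik (0.932) and the vesicle-traffic GTPase Arf6 (0.929). With all culture times pooled, Otud1 ranged from 144.6 to 222.8 in WT and 129 to 238.9 in p107KO. It ranged from 342.4 to 1217.4 in Rb1KO and 439.4 to 1247.1 in DKO. Otud1 was picked for its likeness to Hspa1b, so the gap between these ranges comes with the choice. Ccne2, pooled likewise, ranged from 1838.8 to 4582.5 in WT and 3605 to 15199.2 in Rb1KO, which overlapped.

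The wider chaperone network was read from 10 lists with 77 genes, of which 73 had a probe set and 70 were tested, each by its brightest probe set. In DKO against p107KO 3 of the 70 were higher and 3 lower by limma, near the 2.76% and 1.83% of all probe sets, so the count is not a result about the lists. Dusp1, an immediate early phosphatase, rose by 1.03 ± 0.13 (limma adjusted p = 2.68e-05), the small heat shock protein gene Hspb6 by 0.88 ± 0.24 (limma adjusted p = 0.0304) and the HSP70 co-chaperone gene St13 by 0.46 ± 0.13 (limma adjusted p = 0.0469). The haem oxygenase gene Hmox1 fell by 1.77 ± 0.36 (limma adjusted p = 0.00333), the autophagy receptor gene Sqstm1 by 0.63 ± 0.14 (limma adjusted p = 0.00896) and the HSP40 gene Dnajb2 by 0.84 ± 0.21 (limma adjusted p = 0.0214). Without the array labelled DKO at 48 h, Dusp1 (0.67, adjusted p = 0.0187) and Hmox1 (-1.62, adjusted p = 0.0445) kept their calls, and Hspb6, St13, Sqstm1 and Dnajb2 lost theirs (adjusted p = 0.347, 0.16, 0.0694 and 0.198). For 12 other HSP40 proteins, 6 other HSP70-type and HSP110 proteins, 7 ER chaperones and 8 subunits of the TRiC chaperonin, the median log2 differences were 0.04, 0.13, -0.17 and 0.02, against -0.05 over all probe sets. At 0 h 0 of the 70 passed in either direction by limma, and 4 were higher and 0 lower at an unadjusted p of 0.05.

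In p107KO against WT 0 of the 70 passed by limma, with 1 higher and 5 lower at an unadjusted p of 0.05. In DKO against Rb1KO, Hspe1, the mitochondrial HSP60 partner, rose by 0.58 ± 0.13 (limma adjusted p = 0.0382) and the TRiC subunit gene Cct6a by 0.49 ± 0.11 (limma adjusted p = 0.0441), and Sqstm1 fell by 0.56 ± 0.13 (limma adjusted p = 0.0385). Of the 70 these were 2 higher and 1 lower, where 0.703% of all probe sets passed. Without the array labelled DKO at 48 h, Hspe1 and Cct6a kept their calls (adjusted p = 0.0374 and 0.0327) and Sqstm1 did not (adjusted p = 0.0618). With 24 h of culture the lists of the network moved in different directions. Of 7 ER chaperones, 4 fell in WT, 4 in p107KO and 6 in Rb1KO, and 0 rose, where 17.2%, 12.3% and 24.2% of all probe sets were lower. They included Serpinh1, the collagen chaperone of fibroblastic cells, with log2 changes of -4.04 in WT and -3.59 in Rb1KO. Pdia4, a disulphide isomerase, was at -2.01 in WT and -2.05 in Rb1KO, and the median of the list was -0.73 in WT and -1.21 in Rb1KO against -0.11 and -0.06 over all probe sets.

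Of 7 immediate early genes, 5 rose in WT, 5 in p107KO and 6 in Rb1KO, and 0 fell, where 10.3%, 8.21% and 16.0% of all probe sets were higher. Their medians were 1.57, 2.26 and 1.14, against -0.11, -0.01 and -0.06 over all probe sets. Fos rose by 3.22 ± 0.30 in WT (limma adjusted p = 2.05e-08) and by 1.66 ± 0.22 in Rb1KO (limma adjusted p = 1.78e-06), and Atf3 by 2.78 ± 0.38 and 2.33 ± 0.28 (limma adjusted p = 7.79e-06 and 6.1e-07). Of 5 ubiquitin and proteotoxic stress genes, 5 rose in WT, 2 in p107KO and 3 in Rb1KO, and 0 fell, against the same shares of all probe sets. Their median log2 changes were 0.87, 0.54 and 0.58. Of 12 other HSP40 genes, 5 rose and 2 fell in WT, where 10.3% of all probe sets were higher and 17.2% lower. Dnajb4 rose by 1.41 ± 0.23 in WT (limma adjusted p = 7.22e-05) and Dnajb2 by 1.25 ± 0.28 (limma adjusted p = 0.00146). Dnajc3 had a log2 change of -1.75 ± 0.34 there (limma adjusted p = 0.000389). Hspb6 rose by 0.85 ± 0.30 in WT, 1.73 ± 0.33 in p107KO and 2.68 ± 0.22 in Rb1KO. Of 5 mitochondrial chaperone genes, 0 passed in WT and 0 in p107KO. In Rb1KO 3 fell and 1 rose, where 24.2% of all probe sets were lower and 16.0% higher. Hspd1 and Hspe1 fell in Rb1KO by 1.17 ± 0.15 and 0.73 ± 0.14 (limma adjusted p = 1.48e-06 and 0.000188). The riser was Grpel1, by 0.27 ± 0.11 (limma adjusted p = 0.0475).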

How the data were processed

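The 27 samples were hybridised to Affymetrix arrays after one-cycle biotin labelling of RNAzol-extracted RNA, per the labels' protocols. The deposited values are signal intensities that the authors computed with MAS5 in GCOS 1.4, per the submitters' processing notes. In the files the trimmed means, leaving out 2% at each end, lay between 491.873 and 497.69 in all arrays, and the array medians between 81.0 and 119.3. Precision is limited by how few arrays each group has. No pair of arrays correlated above 0.9787, so no array was taken for a second copy of another.

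Signals were taken as log2(signal + 32), and probe sets in the lowest 40% by mean were left out, which kept 27022 of 45037 and 18 of 20 member probe sets. limma 3.58.1 in R 4.3.3 fitted 1 mean per genotype-by-time group (lmFit, eBayes with trend, residual df 15), two-sided, with Benjamini-Hochberg adjustment over all 27022 and a threshold of 0.05. Groups of 1 array borrow the spread of the others, and averages over times weight each time equally. Where leaving out arrays empties a group, its time leaves the average for both genotypes. Plots used matplotlib 3.10.9 (Python 3.11.15).

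Probe sets were named from the platform annotation: 34945 had 1 symbol, 932 several and 9160 none, and 34741 were matched by Entrez identifier to GRCm38.p6. The members, the gene lists and the tests were chosen with earlier results of these data known. Genes named outside the set are the knocked-out genes, up to 4 per list with the smallest adjusted p, and the 5 genes most alike to Hspa1b. Alternatives were another pseudocount, other filters, quantile and median scaling, array weights, a replicate block, only the groups compared, 1 probe set per gene, and leaving out each array, the arrays with Y-linked signal or the 4 with low correlations. The tests were tried on simulated data first.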

Additional observations from a re-analysis of the deposited data

Results flagged for a closer look

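The 20 member probe sets were each examined in the groups of 4 or 5 arrays, Rb1KO at 24 and 0 h, which made 40 cases that share arrays. In 2 cases an array lay far from the others of its group. By chance about 1 in 20 cases would do so, so the count is no more than chance gives. The Hsph1 probe set 1423566_a_at read 1413.1 in Rb1KO 24 h replicate 3 against 2170.2 to 2219.7 in the others, a gap of 0.939 of the range. The Hspa8 probe set 1431182_at read 81 in the same array against 197.4 to 210.0, a gap of 0.902 of the range. The Rb1KO fall of that Hspa8 set in culture kept its call whichever single array was left out.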

How the results depend on the processing

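Under the alternatives run, 0 called results changed direction. With the replicate number as a block, the Hspa1b difference of DKO from Rb1KO was 0.88 and the members called there numbered 1; array weights gave 0.86 and 2. Leaving out single arrays gave 0.55 to 1.02 and 0 to 1 calls there. With 1 probe set per gene, fewer are tested, and 4 members were called in DKO against p107KO, 2 at 0 h, 4 in WT and 3 in p107KO from 0 to 24 h, 3 in WT from 24 to 48 h, 4 in Rb1KO from 0 to 24 h and 1 from 24 to 48 h. Without the arrays with Y-linked signal, 4 members were called in p107KO from 0 to 24 h, the Rb1KO change of Hspa1b from 24 to 48 h was -0.12, and DKO comparisons have no value, since every DKO array carries it. In Rb1KO from 24 to 48 h, 1 member was called after quantile normalization, with array weights, with the block and without the 4 arrays of low correlation; single arrays left out gave 0 to 1. Leaving out single arrays gave 3 to 5 calls in DKO against p107KO at 0 h, 0.98 to 1.68 for Hspa1b and 2 to 6 calls in WT from 24 to 48 h, 0.91 to 1.83 and 4 to 9 calls in p107KO from 0 to 24 h, and 3.63 to 4.33 for Hspa1b in Rb1KO against WT at 24 h, both ends from leaving out a WT 24 h array. The cause of these shifts was not tested.

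Deviations of same-numbered arrays had a median r of 0.012 over 76 pairs (15 above 0.1, highest 0.377), against -0.0022 over 175 other pairs (12 above 0.1), and 13 of 23 arrays were closest to one of the same number. Not every pair was above 0.1 and the labels give the numbers no meaning, so they were not treated as pairs. Over all alternatives the whole table gave 2 to 21 calls in p107KO against WT (6 as reported), 3 to 945 in DKO against Rb1KO (190), 341 to 2037 in DKO against p107KO (1239), 7 to 165 at 0 h (21), 4025 to 9591 in WT from 0 to 24 h (7424), 1789 to 5988 from 24 to 48 h (4127), 1569 to 6341 in p107KO from 0 to 24 h (5552), 5568 to 11067 in Rb1KO from 0 to 24 h (10854), 765 to 4642 from 24 to 48 h (3239) and 0 to 3 for the p107KO change (0). Median scaling moved the median of all probe sets from -0.11 to 0.05 in WT from 0 to 24 h, from -0.01 to -0.12 in Rb1KO against WT at 24 h and from 0.07 to -0.08 for the p107KO change.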
